A study of Mus musculus with 59 samples.

Results

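The genes described here code for the proteins of the cytosolic ribosome. They were taken by name, from the probe sets assigned to a single gene whose symbol starts with Rpl or Rps followed by a number, or is Rplp0, Rplp1 or Rplp2, leaving out the S6 kinases (Rps6k). The rule found 34 genes on 48 probe sets, out of 8251 genes with a probe set of their own. Of the 34 genes, 28 were bright enough to be tested and 6 were not. Of the 28, 18 had a mean intensity of 1000 or more over all arrays and are called bright here, and 10 were dimmer. Brightness was set by the mean over all 59 arrays, so it does not depend on any comparison.

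The tissue was left ventricle of mice, measured as total RNA on Affymetrix oligonucleotide arrays with 1 array per sample. Mice had either a myocardial infarction or a sham operation. Infarcted hearts gave an infarct piece, from between the left anterior descending coronary artery and the apex, and a remote piece, from above that artery. Sham hearts gave an upper piece, given in the labels as control for infarct and remote alike, and in some mice a lower piece. Infarct, remote and sham upper tissue had 3 arrays at each of 6 times, namely 1, 4, 24 and 48 h and then 1 and 8 weeks, and sham lower tissue had 5 arrays in all, 1 at each time up to 1 week. The labels used here give no strain, sex or age, no genetic change and no drug. They also do not say whether the number in a title is the mouse, which was assumed here. P values therefore measure the spread between these pieces of tissue. Titles such as PGA-lv_1h_511 (sham upper), PGA_MI_ilv_1h_392 (infarct) and PGA_MI_nilv_1h_392 (remote) name single arrays below. For tissue taken within 48 h, sham and infarcted hearts have title numbers from separate ranges, so that a difference between sets of animals and the effect of infarction cannot be told apart there.

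Intensities ran up to 35489 in all, with array medians from 157 to 214. Cell markers moved strongly with infarction. At 1 week 12 of 12 cardiomyocyte markers tested were lower in the infarct, where their summed intensity was 22722 to 77587 against 208005 to 234542 in sham. All 15 macrophage markers were higher there, with sums of 54738 to 62516 against 8107 to 11198, and 17 of 18 markers of dividing cells were higher. Of all genes tested 34.9% were called higher and 25.7% lower in the infarct at that time. Fibroblast markers summed to 83818 to 93051 there, against 25781 to 28025 in sham. At 48 h 11 of 12 cardiomyocyte markers were lower, 10 of 15 macrophage markers and 13 of 18 markers of dividing cells were higher, and the neutrophil markers summed to 15186 to 15779 against 968 to 1677. Of all genes 25.1% were called higher and 25.8% lower at 48 h. For fibroblast and neutrophil markers only sums are given, which follow the brightest markers most. No marker was at 0 in these groups. The part of these cell types in any result below was not tested, and in whole tissue a change in the number of cells of a type and a change of RNA per cell cannot be told apart. Infarct array PGA_MI_ilv_1w_670 stood apart by its level of Myh6, the heavy chain of cardiac myosin, at 580 against 8651 and 7877 on the other arrays of its group. Infarct array PGA_MI_ilv_8w_332 had Adipoq, a fat cell hormone, at 3442 against 74.9 and 836. Without PGA_MI_ilv_1w_670 the named infarct changes at 1 week kept their calls, at 1.61 for Rps19, 1.44 for Rpl13a, 1.31 for Rps4l, 0.41 for Rpl10a, -0.95 for Rpl22, -0.37 for Rpl41, -0.31 for Rps24 and -1.29 for Rpl32. Rplp0, Rps18 and Rpl19 at 1 week and the gene lists were not recomputed without it. Without PGA_MI_ilv_8w_332 the counts at 8 weeks fell from 2 higher and 5 lower to 0 and 2.

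A ribosome has a small subunit, built on 1 ribosomal RNA with the Rps proteins, and a large subunit, built with the Rpl proteins. The proteins are needed in equal numbers, and surplus protein that finds no ribosomal RNA is degraded. Most ribosomal protein messengers begin with a run of pyrimidines at their 5′ end, the terminal oligopyrimidine or TOP motif, through which mTOR and the RNA-binding protein Larp1 set how strongly they are translated. The level of these messengers and the output of ribosomal protein can therefore differ, and the arrays measured the level only.

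The start of the messenger is shown here because this run of pyrimidines is the sequence feature that the family is known for. RefSeq start sites on GRCm38.p6 were available for 27 of the 34 genes, at 36 starts. A C followed by at least 4 bases that were each C or T stood exactly at the annotated start, on the coding strand, at 5 of 36 starts (13.9%), against 823 of 32851 starts of all genes in the table (2.51%). From 10 bases before to 15 bases after the start, the run was found at 18 of 36 starts (50%) and at 30.7% of all starts. The 5 genes with the run exactly at the start were Rps18, Rps10, Rps27, Rpl35a and Rpl38. Below are 30 bases around the start of 5 genes whose values are given later, with 15 bases before it, and capitals mark the run where it is exactly at the start.
Rps18, chr17:33955651-33955680, minus strand: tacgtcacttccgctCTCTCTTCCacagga
Rps10, chr17:27635230-27635259, minus strand: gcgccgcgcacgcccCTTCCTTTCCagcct
Rps27, chr3:90213634-90213663, minus strand: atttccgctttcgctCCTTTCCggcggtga
Rpl13a, chr7:45128731-45128760, minus strand: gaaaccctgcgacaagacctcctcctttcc
Rplp0, chr5:115559452-115559481, plus strand: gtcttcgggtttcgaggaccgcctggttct
Rpl13a has its run downstream of the annotated start, and Rplp0 has none in this window. These matches describe the annotated starts, not the messengers in this tissue.

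As a family the bright ribosomal protein genes stayed closer together than the other genes with a mean of 1000 or more, a set that was not matched to them in brightness. Changes are given as differences of log2(intensity + 45.6), where a difference of 1 is a doubling for a bright gene and less than the true change for a dim one. On the deposited scale the median change of the 18 bright genes in infarct against sham was -0.10 at 1 h, 0.01 at 4 h, 0.12 at 24 h, 0.03 at 48 h, -0.06 at 1 week and -0.08 at 8 weeks. The middle 50% of their changes spanned 0.12 at 24 h, 0.32 at 48 h and 0.39 at 1 week. Over the 1603 other tested genes with a mean of 1000 or more it spanned 0.76, 1.12 and 1.52 at those times. At 1 week 14 of the 18 bright genes (77.8%) changed by less than 0.3, against 22.5% of the other bright genes. At 24 h the shares were 94.4% and 33.9%, and at 48 h 77.8% and 28.6%. Counted from 0 on the deposited scale, such shares depend on the scaling of the arrays. These are descriptions, and no test of the list was made.

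Where the family as a whole lay against sham depended on how the arrays were scaled. The deposited arrays have nearly equal trimmed means, and the values were also scaled in 2 other ways. At 1 week the median change of the bright genes was -0.06 on the deposited scale, 0.46 after quantile normalization and -0.44 when every array was given the same median, and those scalings moved the median of all tested genes from 0.11 to -0.07 and to -0.21. At 48 h the 3 values were 0.03, 0.35 and -0.05, and at 24 h 0.12, 0.25 and 0.01. The closeness of the genes to each other did not turn on this choice. At 1 week the middle 50% of the bright genes spanned 0.39, 0.25 and 0.39 under the 3 scalings, and that of the other bright genes 1.52, 1.61 and 1.51. For single genes below, values or calls under the other scalings are given for many of the changes but not for all.

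**Figure D1:**
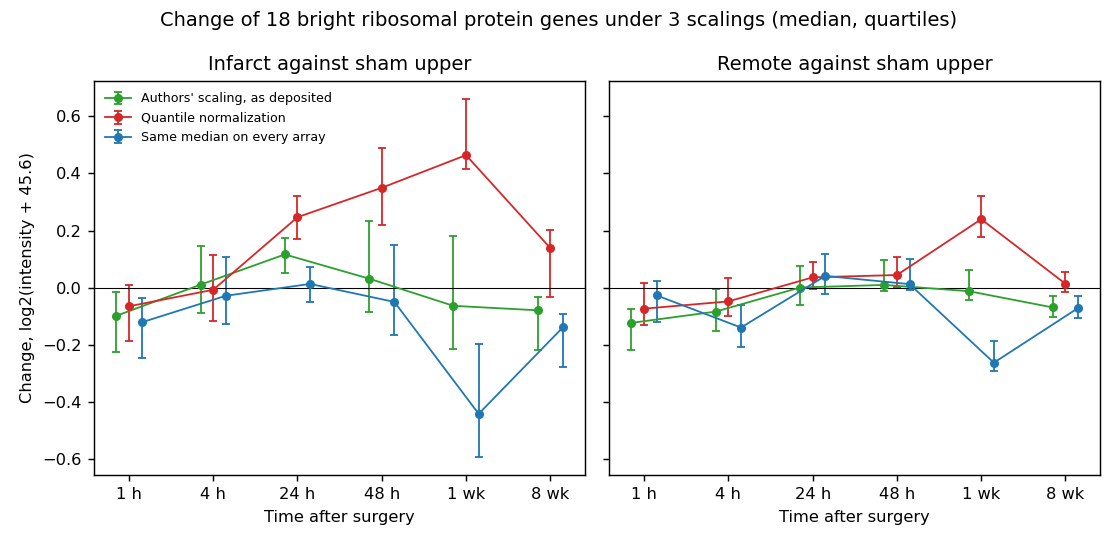
Median change of the 18 bright ribosomal protein genes (points) with quartiles (bars) in infarct (left) and remote tissue (right) against sham upper, on the log2(intensity + 45.6) scale, by time after surgery and for 3 scalings of the arrays. In the infarct at 1 week the median was -0.06 on the deposited scale, 0.46 after quantile normalization and -0.44 with equal medians, while at 4 h the 3 values lay between -0.03 and 0.01.

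Counted gene by gene with limma and Benjamini-Hochberg adjustment over all 6670 genes tested, at an adjusted p below 0.05, few members passed before 24 h. In infarct against sham, 0 of 28 were higher and 1 lower at 1 h, where 3.66% and 3.12% of all genes tested were called higher and lower. In either direction 6.78% of all genes were called at 1 h and 11.9% at 4 h. At 4 h it was 0 and 1 members, against 5.25% and 6.69% of all genes. At 24 h 5 rose and 1 fell, against 18.6% and 24%. At 48 h 8 rose and 2 fell, against 25.1% and 25.8%. At 1 week 4 rose and 7 fell, against 34.9% and 25.7%, and at 8 weeks 2 rose and 5 fell, against 11.5% and 9.66%. In either direction 11 of 28 members (39.3%) passed at 1 week against 60.5% of all genes, 10 of 28 (35.7%) at 48 h against 50.9%, 6 of 28 (21.4%) at 24 h against 42.6%, and 7 of 28 (25%) at 8 weeks against 21.1%. Of the bright members 38.9% passed at 1 week and of the other bright genes 76.7%. Both the counts and their split between the directions went with the scaling. At 1 week 20 members were higher and 3 lower after quantile normalization, against 28.4% and 31.7% of all genes. With equal medians 3 were higher and 15 lower, against 22.3% and 39.2%. At 48 h the splits were 17 and 2 (23.6% and 27.6% of all genes), and 6 and 6 (21.9% and 29.7%). At 24 h they were 13 and 2 (17.6% and 24.9%), and 3 and 2 (15.6% and 28.7%). So members passed less often than all genes at these times on the deposited scale, but more often after quantile normalization. With equal medians they passed less often at 24 h and 48 h and not at 1 week. Of the 67 changes of members that passed in the 18 comparisons, 41 passed with the same sign under both other scalings, 17 lost the call under at least 1 of them with no change of sign, and 9 turned in sign under quantile normalization, all 9 at 1 week.

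**Figure D2:**
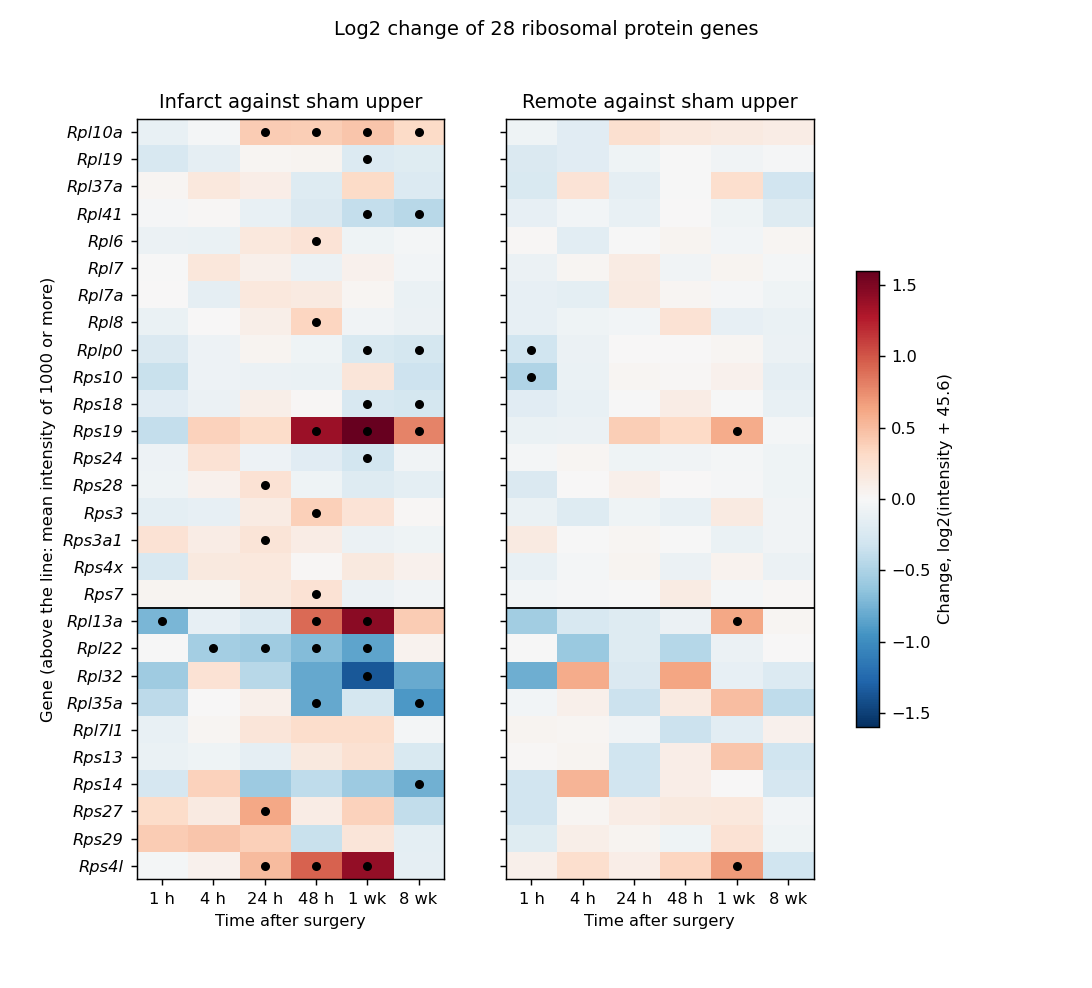
Log2 change of the 28 tested ribosomal protein genes (rows) in infarct (left) and remote tissue (right) against sham upper at 6 times (columns), on the deposited scale. Colour gives the change, a black dot marks an adjusted p below 0.05, and the horizontal line parts the 18 bright genes from the 10 dim ones. Rps19, Rpl13a and Rps4l reached 1.59, 1.45 and 1.40 in the infarct at 1 week, and most other bright genes stayed pale.

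Rps19, a protein of the small subunit whose human gene is mutated in Diamond-Blackfan anaemia, moved farthest among the bright members. Its intensity in the infarct was 7629, 8488 and 6867 at 48 h against 2666, 2987 and 3194 in sham upper tissue. At 1 week it was 8946, 9734 and 9644 in the infarct, against 3712, 2955 and 2700 in sham. At 8 weeks it was 4497, 4484 and 5686 against 2650, 2757 and 2963. At each of these times every infarct array lay above every sham array. Such separation was common. Infarct and sham arrays did not overlap, in either direction, for 37.8% of all genes at 4 h and 46.9% at 24 h. At 48 h, 1 week and 8 weeks the shares were 58.5%, 69.1% and 34.3%. Of the members 17.9%, 25%, 57.1%, 67.9% and 39.3% did not overlap at these 5 times. The same shares apply to the genes below. The rise was 1.36 ± 0.22 (SE) at 48 h (adjusted p = 1.18e-06), 1.59 ± 0.22 at 1 week (adjusted p = 2.82e-08) and 0.79 ± 0.22 at 8 weeks (adjusted p = 0.00741). Under quantile normalization and equal medians the rise at 1 week was 2.04 and 1.22, and it passed under both. Without PGA_MI_ilv_1w_670 or any other single array of these groups it stayed between 1.497 and 1.724 at 1 week. At 8 weeks the call was lost without PGA_MI_ilv_8w_332, where leaving out 1 array at a time gave rises from 0.67 to 0.85. Before 48 h no difference of Rps19 from sham passed. At 24 h the infarct arrays read 4296, 3109 and 4184 and the sham arrays 2875, 4009 and 2621, which overlap.

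In remote tissue Rps19 stood between sham and infarct at 1 week, with 3984, 3404 and 7591. The highest of these came from PGA_MI_nilv_1w_670, and the groups overlapped with sham at 3712. The difference from sham passed at 0.59 ± 0.22 (adjusted p = 0.027), but without that array it was 0.25, the call was also lost without PGA-lv_1w_672 or PGA-lv_1w_674, and it was 0.34 with adjusted p = 0.222 when arrays were given equal medians. The infarct was above remote tissue by 1.04 ± 0.20 at 48 h (adjusted p = 3.79e-05), 1.00 ± 0.20 at 1 week (adjusted p = 7.64e-05) and 0.82 ± 0.20 at 8 weeks (adjusted p = 0.0136). The last of these lost its call without PGA_MI_ilv_8w_332, PGA_MI_nilv_8w_326 or PGA_MI_nilv_8w_332, with 0.70 as the lowest value. It was also lost with the title number as a fixed replicate block and with only the 2 groups fitted (adjusted p = 0.342). At 8 weeks the remote arrays, at 2853, 2844 and 2525, lay within or just below the sham range.

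Rpl13a, a protein of the large subunit that also takes part in silencing of inflammatory messengers and is widely used as a reference gene in PCR, rose at 48 h and 1 week. Its intensity at 48 h was 945, 1201 and 608 in the infarct and 542, 388 and 431 in sham. At 1 week it was 1112, 1802 and 1465 in the infarct and 493, 527 and 471 in sham. At both times every infarct array was above every sham array. The rise was 0.91 ± 0.22 at 48 h (adjusted p = 0.000744) and 1.45 ± 0.22 at 1 week (adjusted p = 4.63e-07), with group means of 918 against 453 and 1460 against 497. It passed at 1 week under both other scalings, at 1.36 and 1.09. At 1 h the direction was the opposite. The infarct arrays read 274, 377 and 331 and the sham arrays 683, 598 and 457, a fall by 0.74 ± 0.22 (adjusted p = 0.0378). That fall lost its call without PGA-lv_1h_511, PGA-lv_1h_512, PGA_MI_ilv_1h_392 or PGA_MI_ilv_1h_395, and the remote arrays at 1 h read 373, 358 and 394.9 (-0.56, adjusted p = 0.119). At 8 weeks the infarct read 434, 525 and 665 against 403, 399 and 379, a difference of 0.40 that did not pass (adjusted p = 0.204).

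Remote tissue at 1 week had Rpl13a at 593, 903 and 918, above all 3 sham arrays, with a rise of 0.62 ± 0.22 (adjusted p = 0.0251). It lost its call under quantile normalization (adjusted p = 0.063) and with equal medians (adjusted p = 0.182), and also without PGA_MI_nilv_1w_663, PGA_MI_nilv_1w_670, PGA-lv_1w_651 or PGA-lv_1w_674. Remote tissue at 1 week also had 15 of 15 macrophage markers higher, with sums of 30895 to 46276, where 20.7% of all genes were higher. Fibroblast markers summed to 82570 to 97322 there, against 25781 to 28025 in sham. Cardiomyocyte markers summed to 142369 to 181567, against 208005 to 234542 in sham. The part of any cell type in the rise of Rpl13a was not tested.

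Rps4l, which RefSeq lists as a transcribed pseudogene and which is related to the small subunit protein S4, was higher at 24 h, 48 h and 1 week. Its probe set carries a mark for probes shared between transcripts, so that its signal may come in part from other S4 copies, which was not tested. The infarct arrays read 393, 377 and 322 at 24 h, 485, 502 and 516 at 48 h and 661, 522 and 740 at 1 week. The sham arrays read 213, 276 and 226, then 250, 276 and 198, then 262, 210 and 172, and no sham array reached an infarct array at any of the 3 times. The rises were 0.51 ± 0.17 (adjusted p = 0.0116), 0.94 ± 0.17 (adjusted p = 8.31e-06) and 1.40 ± 0.17 (adjusted p = 1.42e-09). Remote tissue at 1 week read 344, 313 and 464, above all sham arrays, by 0.69 ± 0.17 (adjusted p = 0.000994), which passed under both other scalings at 0.50 and 0.47. At 8 weeks the infarct read 282, 225 and 340 and sham 343, 295 and 304, which overlap. The second probe set of Rps4l was too dim to test, and when both were averaged the calls at 24 h and 48 h were lost. The call at 24 h was also lost without PGA-lv_24h_510. Rps4x, the gene for the S4 protein itself, passed at no time in the infarct on its brightest probe set, with 0.16 at 1 week (95% interval -0.02 to 0.33, adjusted p = 0.114). A dim probe set of Rps4x, with a mean of 92.3, gave -1.32 at 48 h (adjusted p = 7.14e-07 over probe sets) and -1.04 at 1 week (2.82e-05), so its probe sets disagree.

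Rpl10a, the large subunit protein of the L1 stalk, by which spent transfer RNA leaves, rose moderately over a longer time. The infarct read 6835, 6712 and 5712 at 24 h against 4838, 4732 and 4870 in sham, and 6811, 6824 and 7130 at 48 h against 5903, 5009 and 4880. At 1 week it read 7425, 7003 and 7890 against 5859, 5321 and 5256, and at 8 weeks 5561, 4639 and 5677 against 4200, 4540 and 4022. The groups did not overlap at these 4 times, nor did they for 46.9%, 58.5%, 69.1% and 34.3% of all genes. The rises were 0.41 ± 0.10 (adjusted p = 0.000767), 0.40 ± 0.10 (adjusted p = 0.000803), 0.44 ± 0.10 (adjusted p = 0.000177) and 0.31 ± 0.10 (adjusted p = 0.0214). A second probe set of the gene gave 0.43, 0.39, 1.00 and 0.34. With equal medians the change at 1 week was 0.06 (adjusted p = 0.677) and the one at 8 weeks lost its call (adjusted p = 0.128), so that only the rises at 24 h and 48 h passed under all 3 scalings. The rise at 8 weeks also lost its call without PGA-lv_8w_329, PGA-lv_8w_340, PGA_MI_ilv_8w_311 or PGA_MI_ilv_8w_332.

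**Figure D3:**
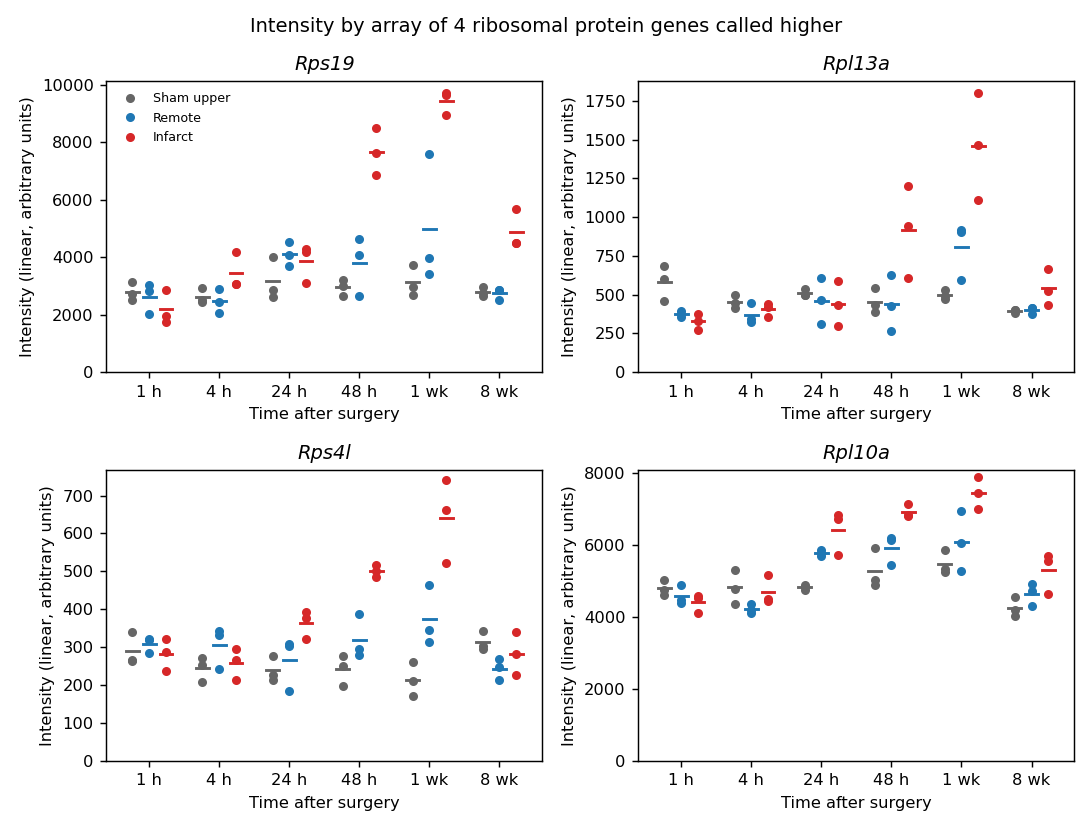
Intensity on each array (points, linear scale from 0) and group mean (bars) of Rps19, Rpl13a, Rps4l and Rpl10a in sham upper, remote and infarct tissue by time after surgery, 3 arrays per group. In the infarct at 1 week the 3 arrays of Rps19 lie between 8946 and 9734, above every sham array, and 1 remote array of the same time reaches 7591.

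Rpl22, a large subunit protein that is not needed for translation itself and matters in the development of T cells, fell from 4 h to 1 week. At 4 h the infarct read 412, 436 and 416 against 737, 641 and 543 in sham, a fall by 0.55 ± 0.17 (adjusted p = 0.0235) that lost its call without any of 5 of the 6 arrays, all but PGA-lv_4h_509. At 24 h it read 336, 364 and 333 against 529, 588 and 486, and at 48 h 252, 352 and 327 against 463 to 615. At 1 week it read 240, 270 and 315 against 504, 551 and 532. Every infarct array was below every sham array at these 4 times. The falls were by 0.57 ± 0.17 at 24 h (adjusted p = 0.00519), by 0.70 ± 0.17 at 48 h (adjusted p = 0.000497) and by 0.85 ± 0.17 at 1 week (adjusted p = 2.53e-05), and all passed under both other scalings. Remote tissue at 1 week, at 474, 630 and 400, was above the infarct, with a difference of -0.76 between infarct and remote (adjusted p = 9.63e-05). At 4 h, however, remote tissue read 437, 444 and 346, below every sham array like the infarct, and its difference of -0.59 from sham did not pass (adjusted p = 0.0534). At 48 h the remote difference was -0.45 (adjusted p = 0.0771), and the infarct was not called against remote at either time. At 8 weeks the infarct was at 514.8, 505 and 656 and sham at 499, 492 and 620. A second, dimmer probe set of Rpl22, with a mean of 159, gave 0.01, 0.51 and 0.16 at 24 h, 48 h and 1 week, none called, so the 2 probe sets disagree, and with their mean in place of the brighter one the calls were lost at all 4 times.

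Rpl41, the shortest ribosomal protein, read 13490, 16181 and 14260 in the infarct at 1 week against 19808, 18651 and 18832 in sham. The sham lower array of that time read 16495, between the infarct and sham upper arrays. This gene has 1 probe set, marked for shared or incomplete probes, and it was not tested with such probe sets left out. At 8 weeks it read 15226, 15093 and 14976 against 21227, 19701 and 20854, and the groups did not overlap at either time. The differences passed on the deposited scale at -0.39 ± 0.12 (adjusted p = 0.00382) and -0.45 ± 0.12 (adjusted p = 0.005). After quantile normalization they were 0.28 at 1 week and -0.16 at 8 weeks, so the sign at 1 week turned. With equal medians they were -0.77 and -0.51 and passed. Rplp0, the base of the stalk that recruits elongation factors and another common reference gene, read 12721, 13538 and 14033 at 1 week against 16214, 16027 and 15466. It read 13353, 12334 and 11561 at 8 weeks against 15135, 14720 and 15496. These passed at -0.24 ± 0.08 (adjusted p = 0.0101) and -0.29 ± 0.08 (adjusted p = 0.0115) and were 0.44 and -0.04 after quantile normalization. With equal medians they were -0.62 and -0.34 and passed. At 8 weeks the call on the deposited scale was lost without PGA_MI_ilv_8w_332. The sham lower array of 1 week read 13871 for Rplp0, within the infarct range of that time.

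Rps18, a small subunit protein near the decoding site, also lay below sham at the late times on the deposited scale. It read 10343, 11324 and 11232 in the infarct at 1 week against 13905, 12921 and 12549, and 10627, 9897 and 9612 at 8 weeks against 12262, 12231 and 12157. The 1 sham lower array of 1 week, from a heart without infarct, read 10234, below the infarct arrays, and at 8 weeks there was none. The differences from sham upper of -0.26 ± 0.09 (adjusted p = 0.00911) and -0.28 ± 0.09 (adjusted p = 0.0162) became 0.34 and -0.05 after quantile normalization. With equal medians they were -0.64 and -0.34 and passed. Without PGA_MI_ilv_8w_332 only Rpl41 and Rps14 stayed called lower at 8 weeks, so the call of Rps18 was lost. Rps24 and Rpl19 were called lower at 1 week too, at -0.30 and -0.22, and turned to 0.41 and 0.28. With equal medians they were -0.68 and -0.60 and passed. The sham lower array of 1 week read 8803 for Rpl19, within the infarct range, and 16064 for Rps24, above the infarct arrays. The probe set of Rps24 is marked for shared or incomplete probes. Its call was lost without such probe sets and with the mean of the gene's probe sets. The probe set of Rps24 carries the same sequence accession as that of Rpl7, so its gene assignment is uncertain. With the arrays scaled so that the bright ribosomal protein genes kept 1 median, Rpl41 was at -0.31 (adjusted p = 0.00526), Rps24 at -0.23 (adjusted p = 0.017) and Rps18 at -0.19 (adjusted p = 0.0398), and Rplp0 and Rpl19 did not pass.

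**Figure D4:**
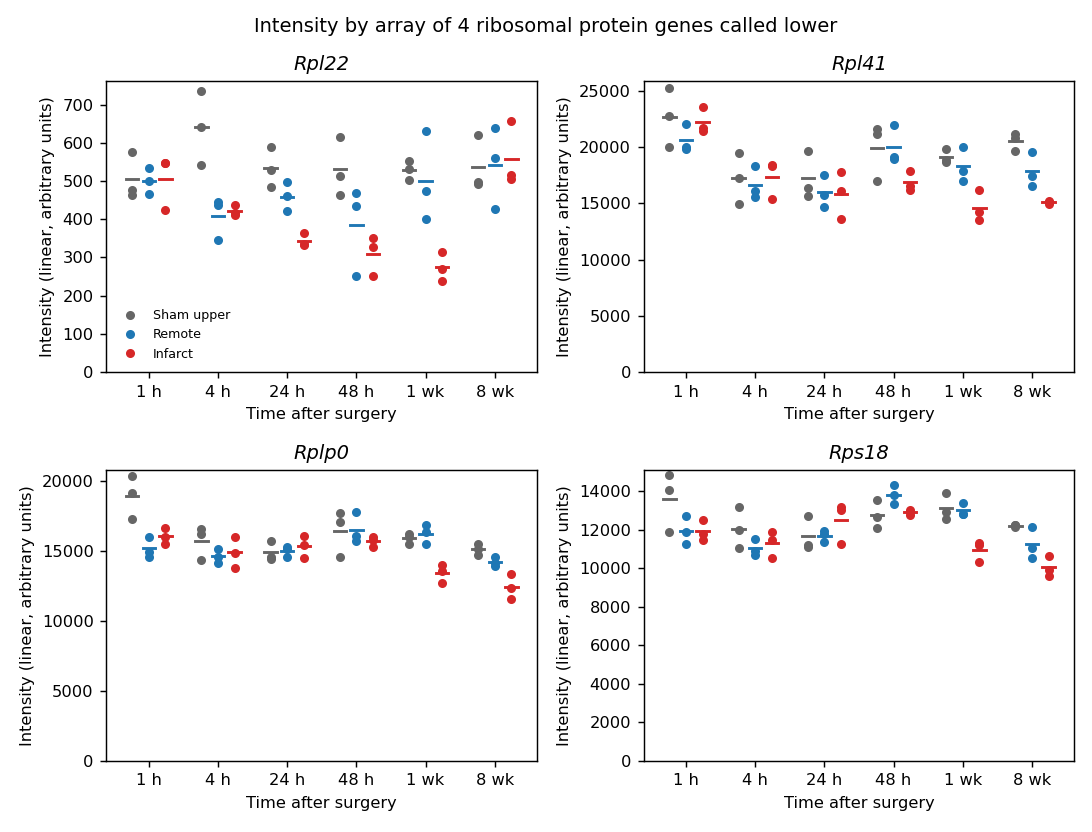
Intensity on each array (points, linear scale from 0) and group mean (bars) of Rpl22, Rpl41, Rplp0 and Rps18 in sham upper, remote and infarct tissue by time after surgery, 3 arrays per group. Infarct arrays of Rpl22 lie below sham from 4 h to 1 week. For Rpl41, Rplp0 and Rps18 the infarct arrays at 1 week and 8 weeks lie below sham on the deposited scale, and at 1 week their sign turns after quantile normalization (0.28, 0.44 and 0.34).

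Smaller rises of bright members in the infarct were met at 24 h and 48 h. Rps3, a small subunit protein that guards the entry of the messenger and also acts in DNA repair, read 9708, 10392 and 8509 at 48 h against 8105, 7512 and 6437, a rise of 0.38 ± 0.11 (adjusted p = 0.00399). Rpl8, a large subunit protein close to the catalytic centre, read 10576, 11394 and 9046 against 8640, 8716 and 7020, a rise of 0.35 ± 0.10 (adjusted p = 0.00303). Both passed under quantile normalization and equal medians, though not with the arrays scaled to the family itself (adjusted p = 0.079 and 0.0608). Rpl6 and Rps7 rose by 0.22 and 0.24 at 48 h, and Rps28 and Rps3a1 by 0.23 and 0.20 at 24 h, and all 4 lost their call with equal medians. Of Rps28 another bright probe set gave 0.09 at 24 h. Rps27, a dimmer gene for a zinc finger protein of the small subunit, read 792, 1086 and 1253 at 24 h against 613, 752 and 587, a rise of 0.62 ± 0.17 (adjusted p = 0.00256) that passed under both other scalings.

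The dimmest members give limited evidence. Rpl32, Rpl35a, Rps13 and Rps14 had mean intensities under 120, close to the level of 108.2 that a gene had to reach on 3 arrays to be tested. Rpl32 read 44.1, 19.6 and 19.2 in the infarct at 1 week against 145, 141 and 132 in sham, a difference of -1.35 ± 0.35 (adjusted p = 0.000992), and 24.1, 17.5 and 25 at 48 h against 171, 161 and 94.9 in remote tissue. The sham lower array of 1 week read 22.6, within the infarct range, and the probe set is marked for shared or incomplete probes. Sham upper arrays of the same gene ranged from 44.9 to 333 over the 6 times. Over the alternative settings and arrays left out, its difference from sham at 1 week ran from -2.08 to -0.62, so its size is uncertain. Rpl35a was called lower at 48 h (-0.82, adjusted p = 0.0234) and 8 weeks (-0.91, adjusted p = 0.0288) and Rps14 at 8 weeks (-0.77, adjusted p = 0.0289), and each of these 3 calls was lost on leaving out any of 4 single arrays. For Rpl35a these were PGA-lv_48h_518, PGA-lv_48h_520, PGA_MI_ilv_48h_351 and PGA_MI_ilv_48h_355 at 48 h. At 8 weeks they were PGA-lv_8w_329, PGA-lv_8w_340 and PGA_MI_ilv_8w_311 for both genes, with PGA_MI_ilv_8w_332 for Rpl35a and PGA_MI_ilv_8w_326 for Rps14. For Rps14 the infarct arrays (26.1, 17.8 and 99.9) overlapped sham (107.5, 84.4 and 119.8). The sizes are uncertain here too. Over the alternatives Rpl35a ran from -1.28 to -0.37 at 48 h and from -1.31 to -0.44 at 8 weeks. Rps14 ran from -1.26 to -0.33 at 8 weeks. The 6 members not tested were Rpl38, Rpl39, Rpl39l, Rps15, Rps20 and Rps27l. Of these only Rpl39l reached 108.2 on any array, at 163 on 1 of 59.

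In remote against sham 0 of 28 members were higher and 2 lower at 1 h, where 5.52% and 2.5% of all genes were called, 8.02% in all. The 2 were Rplp0, at 14552, 14961 and 16034 against 20372, 17289 and 19178 (-0.32 ± 0.08, adjusted p = 0.0138), and Rps10, at 6044, 5593 and 7074 against 10237, 8128 and 7963 (-0.49 ± 0.14, adjusted p = 0.0207). Both calls were lost with equal medians, that of Rplp0 also after quantile normalization, and both without PGA-lv_1h_511 or PGA_MI_nilv_1h_392, and that of Rps10 also without PGA_MI_nilv_1h_394. By limma no member passed at 4 h, 24 h, 48 h or 8 weeks, where 1.74%, 4.5%, 8.82% and 0.12% of all genes did. Split by direction, 1.42% of all genes were higher and 0.315% lower at 4 h, 2.94% and 1.56% at 24 h, 4.47% and 4.35% at 48 h, and 0.12% and 0% at 8 weeks. At these times 2, 1, 4 and 0 members had an unadjusted p below 0.05, and the share of all genes at that level was not counted. The analysis with only the 2 groups in the fit also called none at these times. At 1 week 3 rose and 0 fell, against 20.7% and 17.7% of all genes (38.4% in all), and the 3 were Rps4l, Rpl13a and Rps19 as given above. With equal medians 1 was higher and 9 were lower, against 13% and 29.8% of all genes. After quantile normalization 12 were higher and 1 was lower, against 16.7% and 20.4%.

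Infarct and remote pieces come from the same hearts if title numbers are mice, except that at 24 h PGA_MI_ilv_24h_363 and PGA_MI_nilv_24h_362 have no partner. In infarct against remote 2 of 28 members were higher and 0 lower at 1 h, against 3.16% and 1.92% of all genes, 5.08% in either direction. These were Rps27 (1162, 912 and 980 against 648, 611 and 697, 0.60 ± 0.15, adjusted p = 0.0162) and Rps29, another zinc finger protein of the small subunit (0.60 ± 0.18, adjusted p = 0.0382). Infarct and remote pieces also differ in their position in the ventricle. The 1 sham lower array of 1 h read 1053.5 for Rps27 and 308.3 for Rps29, within the infarct range of both. The part of position in these differences was not tested. The call of Rps29 was lost under both other scalings. That of Rps27 was lost without PGA_MI_ilv_1h_392, PGA_MI_nilv_1h_392 or PGA_MI_nilv_1h_394, and that of Rps29 without any of these or PGA_MI_ilv_1h_395. None passed by limma at 4 h, where 1.42% of all genes did (0.705% higher, 0.72% lower) and 3 members had an unadjusted p below 0.05. How many of all genes had such an unadjusted p was not counted. At 24 h 2 members were higher and 0 lower, against 15.5% and 17.8% of all genes (33.3% in all). At 48 h 6 were higher and 2 lower, against 24.4% and 23.6% (48.1%). At 1 week 5 were higher and 8 lower, against 22.8% and 18.4% (41.2%), and at 8 weeks 1 was higher and 0 lower, against 3.78% and 2.71% (6.49%). Rpl7l1, a relative of Rpl7 with a role in making the large subunit, was 0.62 ± 0.12 higher at 48 h (adjusted p = 2.24e-05) and 0.45 ± 0.12 higher at 1 week (adjusted p = 0.00162), under all 3 scalings, and it did not pass against sham. The member changes against sham and against remote share the infarct arrays.

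The infarct effect differed between the 6 times for 15 of 28 members by an F test, against 64.7% of all genes, and the remote effect for 1 (Rps4l), against 27.9%. In sham upper tissue alone 5 of 28 differed between times, against 20.4%. Rplp0 was at 18946 ± 1554 (SD, n = 3) at 1 h and between 14899 and 16466 at the other times (adjusted p = 0.0195), and Rpl37a ranged from 3324 ± 84 at 1 week to 5378 ± 604 at 8 weeks (adjusted p = 0.0245). Rps14, Rpl32 and Rpl41 were the other 3. No member passed by limma between sham lower and sham upper tissue (5.92% of all genes did, 3.18% higher and 2.74% lower), though 9 had an unadjusted p below 0.05. The share of all genes at that unadjusted level was not counted, so the 9 cannot be set against it. Rpl32 at -0.64 and Rps27 at 0.30 had the smallest adjusted p (0.0649 and 0.0725). Rplp0 and Rps18 were -0.12 and -0.14 in sham lower tissue (adjusted p = 0.164 and 0.0978). At 1 week the 1 sham lower array was at or near the infarct level for Rps18, Rplp0, Rpl19 and Rpl32. It was above the infarct arrays for Rpl41, Rps24 and Rpl22 (494.5 for Rpl22). The part of position in the ventricle in the infarct falls was not tested.

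A further 39 probe sets are assigned to a ribosomal protein symbol together with other genes and stay outside the rule. Of these 35 could be tested among 9064 probe sets. In infarct against sham 11 were higher and 0 lower at 24 h (18.2% and 21.6% of all probe sets), 11 and 2 at 48 h (24.3% and 24.3%) and 11 and 5 at 1 week (33.7% and 23.8%). Their medians were 0.20, 0.10 and 0.11. Rplp1, Rplp2, Rpl3, Rpl3l, Rps6 and Rpl22l1 are not analysed here. Rpsa, a small subunit protein whose name falls outside the rule, rose in the infarct by 0.45 ± 0.10 at 24 h (adjusted p = 0.000315), 0.35 ± 0.10 at 48 h (adjusted p = 0.00389) and 0.43 ± 0.10 at 1 week (adjusted p = 0.000323). It was 1 of 2 tested genes in a list of such proteins, and the other was not called at these times.

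The list of proteins of the mitochondrial ribosome, which translates the few genes of mitochondrial DNA, stood mostly lower. The list was taken by symbol (Mrpl or Mrps and a number), and the place of each member in that ribosome was not checked. Of 59 mitochondrial ribosomal protein genes tested 43 fell and 0 rose in infarct against sham at 24 h, 46 fell and 1 rose at 48 h and 53 fell and 1 rose at 1 week, and 26 fell at 8 weeks. Of all genes tested 24%, 25.8%, 25.7% and 9.66% were called lower at these times. Their median was -0.51, -0.66, -0.99 and -0.35 at these times. Mrpl12, which also binds the mitochondrial RNA polymerase, went from a mean of 2668 in sham to 547 (-2.23 ± 0.17, adjusted p = 1.08e-14). Mrpl17 was the 1 that rose at 1 week, by 0.57 ± 0.12 (adjusted p = 8.01e-05). Remote tissue at 1 week had 50 of 59 lower, against 17.7% of all genes, with a median of -0.66. The median of the bright cytosolic genes exceeded that of the mitochondrial ones at 1 week in the infarct by 0.93 on the deposited scale, by 1.65 after quantile normalization and by 0.90 with equal medians. Lower cardiomyocyte markers went with it.

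Genes that assemble cytosolic ribosomes were mostly higher at 24 h and 48 h. Of 51 tested 29 rose and 2 fell at 24 h, 31 rose and 0 fell at 48 h, 20 rose and 6 fell at 1 week and 4 rose and 2 fell at 8 weeks, with medians of 0.42, 0.67, 0.21 and 0.04. Of all genes 18.6% were called higher and 24% lower at 24 h, 25.1% and 25.8% at 48 h, 34.9% and 25.7% at 1 week, and 11.5% and 9.66% at 8 weeks. Nhp2, a core protein of the particles that modify ribosomal RNA, rose from a mean of 540 to 2237 at 48 h (1.95 ± 0.16, adjusted p = 8e-13). Rrp12, which carries precursors of both subunits out of the nucleus, rose from 79.0 to 530.2 (adjusted p = 2.55e-06). Of 18 enzymes that load transfer RNAs with amino acids 7 rose and 2 fell at 24 h, and 9 rose and 0 fell at 48 h, against the same shares of all genes. At 48 h Cars, for cysteine, rose from 87.6 to 337.5 (adjusted p = 0.000279) and Vars, for valine, by 1.09 ± 0.17 (adjusted p = 9.03e-07). Of the markers of dividing cells 3 of 18 were higher at 24 h, near the share of all genes, and 13 of 18 at 48 h. Their summed intensity in the infarct was 3840 to 4414 at 24 h, 5536 to 12303 at 48 h and 9527 to 13971 at 1 week. Fewer assembly genes rose at 1 week than at 48 h. The part of dividing cells in these lists was not tested.

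Translation factors were mixed. Of 34 initiation factors 9 rose and 11 fell in the infarct at 1 week, where 34.9% of all genes were called higher and 25.7% lower. The poly(A)-binding proteins parted, Pabpc4 by -1.70 ± 0.14 (adjusted p = 1.14e-13) and Pabpc1 by 1.16 ± 0.15 (adjusted p = 1.35e-08). Eif1a, which helps to scan for the start codon, rose by 1.92 ± 0.15 (adjusted p = 3.54e-14), and Eif2d fell by 1.28 ± 0.12 (adjusted p = 9.33e-12). Of 8 elongation and termination factors 1 rose and 4 fell at 1 week. Eef1a2, the form of elongation factor 1 alpha found in muscle and nerve, went from a mean of 18246 to 3293 (-2.66 ± 0.23, adjusted p = 5.92e-13), whereas Eef1a1, the general form, rose by 0.25 ± 0.11 (adjusted p = 0.046). Among 12 regulators of ribosomal protein synthesis 2 rose and 5 fell at 4 h, where 5.25% of all genes were called higher and 6.69% lower. Myc, which drives ribosome production, rose from 97.1 to 479 (adjusted p = 6.03e-09) and its relative Mycn from 11.7 to 139 (adjusted p = 0.00389). Means below the level of 108.2 used for testing make the size of a log2 difference depend on the added offset, so it is left out here for these genes and for Rrp12, Cars and Eef2k. Mtor fell by 0.57 ± 0.14 (adjusted p = 0.00391), and Eef2k, the kinase that slows elongation, fell from 172.5 to 45.8 (adjusted p = 0.00596).

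**Figure D5:**
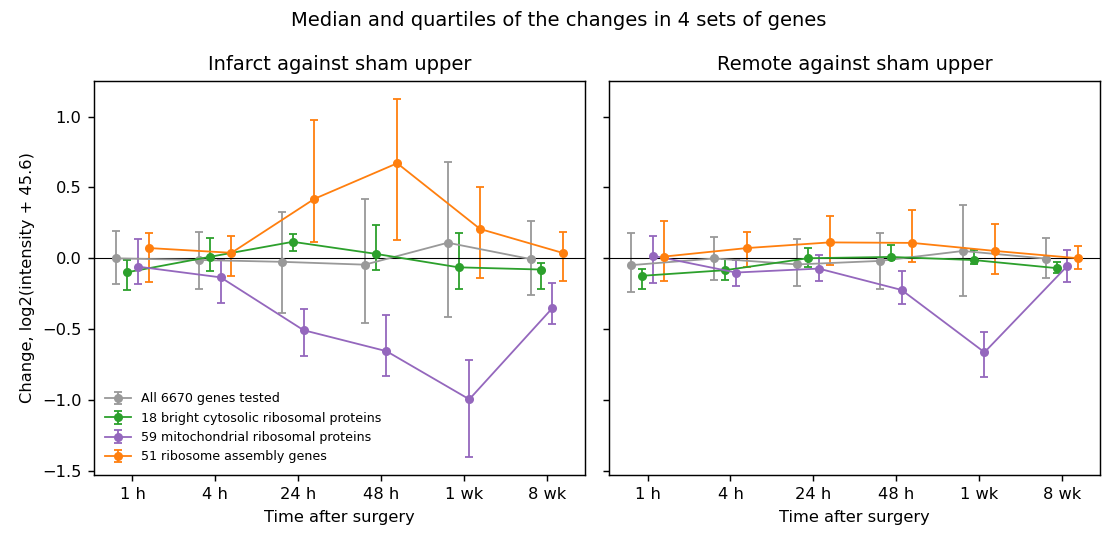
Median (points) and quartiles (bars) of the changes in infarct (left) and remote tissue (right) against sham upper, on the log2(intensity + 45.6) scale, for all 6670 genes tested, the 18 bright cytosolic ribosomal proteins, 59 mitochondrial ribosomal proteins and 51 ribosome assembly genes. At 1 week in the infarct the mitochondrial median was -0.99 and the cytosolic one -0.06 on the deposited scale, the latter turning to 0.46 after quantile normalization, and at 48 h the assembly median was 0.67.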

How the data were processed

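The deposited intensities were on a linear scale and had been scaled by the authors to nearly equal trimmed means, as the values show, and the method is not given in the sources used here. Of 12488 probe sets, 66 controls, 396 with several genes and 1193 with none were left out, and the probe set with the highest mean stood for a gene. Genes were tested if at least 3 arrays read 108.2 or more (the 40th percentile). After 45.6 (0.25 times the median) was added, log2 values were fitted with limma 3.58.1 in R 4.3.3, 23 groups over 59 arrays, 36 residual degrees of freedom, with the title number as a random block (consensus correlation 0.148). Precision is limited by 3 arrays a group. The test was checked on simulated data. Same-numbered infarct and remote arrays deviated together (correlation over 0.1) in 7 of 17 pairs (-0.098 to 0.418). The highest correlation between 2 arrays was 0.986.

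The members, gene lists, tests and naming rule were chosen with earlier results of these data known. Named are the 4 largest called rises and falls against sham at each time, 3 and 3 for remote, 2 and 2 between them, the 4 smallest p of each F test, a panel and up to 2 genes per direction in each list. Other called genes named were chosen after their values were seen. Alternatives were other offsets, scalings, filters, probe set rules, blocks and controls, and each array left out. Figures used Python 3.11.15 and matplotlib 3.10.9.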

Additional observations from a re-analysis of the deposited data

Results flagged for a closer look

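For 15 of 28 ribosomal protein genes the difference between infarct and sham differed between the 6 times. The test was limma's F test with Benjamini-Hochberg adjustment over all genes, which called 64.7% of all genes tested, so members were not called more often. The adjusted p was 5.95e-07 for Rps4l, 1.11e-06 for Rpl13a, 3.39e-06 for Rps19, 0.000613 for Rpl10a and 0.0026 for Rpl22. It was 0.00679 for Rps24, 0.00822 for Rps27, 0.0165 for Rps3, 0.0187 for Rps4x and 0.0302 for Rps18. It was 0.0333 for Rps29, 0.0354 for Rps28, 0.037 for Rps3a1, 0.0371 for Rpl8 and 0.038 for Rpl6. For Rps4l alone the difference between remote tissue and sham also differed between times (adjusted p = 0.0227), against 27.9% of all genes.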

How the results depend on the processing

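Of 479 recomputed values for 45 named changes, 415 kept direction and call, 62 lost the call and 2 turned in sign (Rpl41 at 0.28 and Rps24 at 0.41, infarct against sham at 1 week after quantile normalization). These 45 leave out changes named outside the rule. Over all 67 called changes of members 9 turned in sign, among them Rplp0, Rps18 and Rpl19 at 1 week (0.44, 0.34 and 0.28). Leaving out single arrays gave 270 further values, of which 204 kept and 66 lost the call, and 0 turned. Counts and medians below are of ribosomal protein genes higher, lower and of the bright ones, and the cause of each move was not tested. After quantile normalization, infarct against sham had 2 lower at 1 h, 13 higher and 2 lower at 24 h (median 0.25), 17 higher at 48 h (0.35), 20 and 3 at 1 week (0.46) and 4 and 3 at 8 weeks (0.14). Remote against sham had 1 lower at 1 h and 12 and 1 at 1 week (0.24). Infarct against remote had 1 higher at 1 h, 10 and 1 at 24 h (0.23), 18 higher at 48 h (0.34), 16 and 4 at 1 week (0.29) and 2 higher at 8 weeks (0.13). The F tests called 23 (infarct), 3 (remote) and 3 (sham), and sham lower against upper 1 and 1. With equal medians, infarct against sham had 3 and 2 at 24 h (0.0132), 6 lower at 48 h, 15 lower at 1 week (-0.44) and 1 higher at 8 weeks. Remote against sham had 0 lower at 1 h (-0.0271) and 1 and 9 at 1 week (-0.26). Infarct against remote had 1 higher at 1 h (-0.0673), 1 and 1 at 24 h (-0.0279), 4 lower at 48 h (-0.0025) and a median of -0.11 at 1 week. The remote F test called 2 and sham lower against upper 1 lower.

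With the bright ribosomal protein genes at 1 median, a scaling chosen after seeing the data, infarct against sham had 1 and 0 at 1 h, 3 higher at 24 h (0.0196), 3 and 7 at 48 h (-0.11), 8 higher at 1 week and 1 lower at 8 weeks (0.0315). Remote against sham had 1 lower at 1 h. Infarct against remote had 1 higher at 1 h, 0 and 1 at 24 h (-0.0135), 5 lower at 48 h (-0.0097) and 2 higher at 8 weeks (0.0753). The infarct F test called 9 and sham lower against upper 1 higher. With an offset of 0.05 times the median, sham lower against upper had 1 lower. With 1 times the median, infarct against sham had 2 lower at 1 h and 1 higher at 4 h, remote against sham 1 lower at 4 h, and the remote F test 2. With the mean of a gene's probe sets, infarct against sham had 1 and 0 at 4 h and 3 and 0 at 24 h, infarct against remote 1 higher at 1 h and 6 lower at 48 h, and the sham F test 8. There the median change of bright ribosomal protein genes, infarct against remote 48h, was -0.0437. Without shared or incomplete probe sets, infarct against sham had 3 higher at 24 h and 4 lower at 1 week, infarct against remote 1 higher at 24 h and 5 lower at 1 week, and the remote F test 0. With only the 2 groups fitted, infarct against sham had 0 lower at 1 h, 2 higher at 24 h, 4 higher at 48 h, 4 lower at 1 week and 0 and 0 at 8 weeks, remote against sham 0 lower at 1 h, and infarct against remote 0 higher at 1 h, 24 h and 8 weeks and 3 lower at 1 week. With sham lower arrays added to the control, infarct against sham had 0 lower at 1 h and 2 lower at 24 h, and remote against sham 1 lower at 4 h and 2 lower at 48 h.

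With no replicate block, infarct against remote had 1 higher at 1 h and 1 at 24 h, and remote against sham 1 lower at 4 h. With a fixed replicate block, infarct against remote had 0 higher at 24 h and 0 at 8 weeks. Leaving out single arrays, infarct against sham ranged over 0 to 1 higher and 0 to 2 lower at 1 h, 0 to 1 and 0 to 1 at 4 h, 2 to 6 and 1 to 2 at 24 h, 1 to 3 lower at 48 h, 4 to 7 higher at 1 week and 0 to 2 and 2 to 5 at 8 weeks. Remote against sham ranged over 0 to 2 lower at 1 h, 0 to 1 lower at 4 h and at 48 h and 1 to 3 higher at 1 week. Infarct against remote ranged over 0 to 2 higher at 1 h, 0 to 3 higher at 24 h, 5 to 8 lower at 1 week, and 0 to 1 higher and 0 to 2 lower at 8 weeks. Signal near background limits the 4 members with a mean under 120 and the 6 not tested.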
